A study of Mus musculus with 22 samples.

Results

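The acute-phase livers were the 2 livers of 20-month-old wild-type (WT) mice, replicates 1 and 2, in which the serum amyloid gene Saa1 stood far above the other livers of that age. They are 2 of the 6 livers sequenced at 20 months and 2 of the 22 in the series. They were chosen by Saa1 itself, in CPM, the reads of the gene divided by all reads counted in genes and scaled to 1000000: libraries above 5000 CPM were set against those below 1000 CPM. Saa1 stood at 51084 and 22661 CPM in the acute-phase livers, against 213 CPM in WT replicate 3 and 302, 166 and 155 CPM in the 3 knockout (KO) livers. The lowest liver inside the threshold and the highest outside it were thus at 22661 and 302 CPM. All mice were male C57BL/6 animals; KO mice were Slc10a1-/-, lacking the sodium-dependent bile acid transporter NTCP of hepatocytes, and WT mice carried the intact gene. RNA sequencing of polyA RNA from frozen livers covered KO and WT mice of 4 weeks (3 and 3), 8 weeks (6 and 4) and 20 months (3 and 3). The labels name no treatment, infection or disease, and say nothing of litters, cages, feeding or hour of collection.

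Both acute-phase livers were WT, and 3 of the 4 livers they are set against were KO, so genotype and acute-phase state overlap at this age, and WT replicate 3 is given apart from the KO livers throughout. The targeted gene, Slc10a1, was at 154 and 370.2 CPM in the acute-phase livers, against 288 CPM in WT replicate 3 and 103, 92.3 and 92.9 CPM in the KO livers. Reads of the gene thus remained in the KO libraries, and every WT library was above every KO library of this age. Because the split was made from Saa1 in these same libraries, differences between the acute-phase livers and the other 4 are given as a description with no test, and what counts is whether both acute-phase values lay above, or below, all 4 others. Levels are CPM scaled by TMM (trimmed mean of M-values, a scaling of library sizes), and log2 ratios set the mean of the acute-phase livers over the mean of the other 4 after adding 0.5 CPM to each.

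The acute-phase response is the change in liver secretion that follows infection or injury anywhere in the body. Interleukin-6, acting through the transcription factor STAT3, and interleukin-1, acting through NF-kB and C/EBP factors, drive hepatocytes to make serum amyloid A, haptoglobin, fibrinogen and orosomucoid, while albumin and other carrier proteins are made less. It is known to go along with release of neutrophils from the bone marrow and with lower expression of hepatic metabolic enzymes.

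Counts in genes were 18032355 to 26789350 per library at 20 months, so that 3 counts, the limit a count of 0 allows for counting error alone, correspond to 0.112 to 0.166 CPM. Saa1 and Saa2 together took 11.2% of all counts in WT replicate 1 and 5.12% in WT replicate 2. The median log2 ratio over 12540 genes that passed a filter on low counts, without the Saa genes, was -0.02. Genes that define hepatocytes were abundant in all 6 livers, with a summed level of 47033 and 68613 CPM over 10 genes in the acute-phase livers, against 75935 CPM in WT replicate 3 and 74863, 99257 and 101183 CPM in the KO livers, while Prss2 of the pancreas was at 0 counts in all 6. Reads of mitochondrial genes were 2.80% and 3.49% of counts in the acute-phase livers, against 4.63% in WT replicate 3 and 6.91%, 4.81% and 4.68% in the KO livers. KO replicate 1 stood apart from the other KO livers: 14.72% of its reads lay outside genes, against 7.0% to 8.52% in the other 5 libraries, and the immediate-early gene Egr1 was at 621 CPM, against at most 19.8 CPM elsewhere. Clock genes also differed between livers: Dbp was at 9.02 and 51.0 CPM in the acute-phase livers, against 64.3 CPM in WT replicate 3 and 11.1, 78.9 and 72.2 CPM in the KO livers. The part of these differences in the results was not tested. Of the filtered genes, 1846 (14.7%) lay above all 4 others in both acute-phase livers and 1534 (12.2%) lay below; these shares are the background for the counts of genes given here, and since the split was made in these libraries nothing further is read from them. By the same count, 572 genes (4.56%) were above and at least 2-fold apart, and 211 (1.68%) were below by as much. Leaving out KO replicate 1 raised the 2 counts to 2900 and 3389, leaving out WT replicate 1 to 2835 and 2346, and leaving out WT replicate 2 to 3866 and 3935.

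Orm2, Lcn2, Mt2 and S100a9, which had large ratios, are shown with their promoter windows. Orm2 (chromosome 4, 63362449 to 63365878) encodes an orosomucoid, an acute-phase plasma glycoprotein that binds drugs and steroids. Lcn2 (chromosome 2, 32384633 to 32388252) encodes lipocalin 2, which binds the iron carriers of bacteria. Mt2 (chromosome 8, 94172664 to 94173568) encodes a metallothionein, a zinc- and copper-binding protein. S100a9 (chromosome 3, 90692632 to 90695721) encodes a subunit of calprotectin, a main protein of the neutrophil cytosol. Coordinates are those of GRCm38 with GENCODE release M21. Their promoter windows, from 250 bases before to 50 bases after the start of the gene on its own strand, are printed from RefSeq (GRCm38.p6), because all 4 hold a match to the C/EBP letters TTGCNNAA, set in capitals. They lie at chr4:63362199-63362498 on the plus strand, chr2:32387690-32387989 on the minus strand, chr8:94172368-94172667 on the plus strand and chr3:90695672-90695971 on the minus strand. For Lcn2 and Mt2 the RefSeq start of the window differs from the GENCODE start. The Lcn2 window lies wholly within the gene as GENCODE places it.
Orm2: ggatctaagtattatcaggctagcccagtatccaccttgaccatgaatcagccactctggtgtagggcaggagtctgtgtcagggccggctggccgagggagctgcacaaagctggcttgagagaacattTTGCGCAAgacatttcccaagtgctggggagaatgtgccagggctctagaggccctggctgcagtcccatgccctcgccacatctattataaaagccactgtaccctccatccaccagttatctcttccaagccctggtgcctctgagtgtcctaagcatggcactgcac
Lcn2: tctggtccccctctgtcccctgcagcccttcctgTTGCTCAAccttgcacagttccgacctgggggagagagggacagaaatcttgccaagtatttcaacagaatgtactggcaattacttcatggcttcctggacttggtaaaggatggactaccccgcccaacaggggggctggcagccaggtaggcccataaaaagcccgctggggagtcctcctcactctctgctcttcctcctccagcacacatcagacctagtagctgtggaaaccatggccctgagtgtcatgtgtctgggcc
Mt2: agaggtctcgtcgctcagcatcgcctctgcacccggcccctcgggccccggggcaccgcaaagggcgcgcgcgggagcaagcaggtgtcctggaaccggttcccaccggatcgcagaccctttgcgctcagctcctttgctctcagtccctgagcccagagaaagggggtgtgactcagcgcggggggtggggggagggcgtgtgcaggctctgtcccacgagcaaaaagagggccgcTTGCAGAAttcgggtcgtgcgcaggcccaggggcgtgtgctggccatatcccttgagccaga
S100a9: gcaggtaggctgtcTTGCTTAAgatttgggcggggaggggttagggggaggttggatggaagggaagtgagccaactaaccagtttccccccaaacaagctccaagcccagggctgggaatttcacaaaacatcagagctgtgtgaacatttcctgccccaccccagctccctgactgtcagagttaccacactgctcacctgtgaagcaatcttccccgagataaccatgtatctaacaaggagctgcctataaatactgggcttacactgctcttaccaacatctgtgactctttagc
Sets of letters for 3 factors were searched on both strands of every such window, except those of a single chromosome, which was left out. In the gene lists a gene counted if any of its windows matched, while the share over all promoters counted each window. TTGCNNAA (C/EBP) occurred in 11 of the 23 acute-phase protein genes with a window in the table (47.83%) and in 6 of 19 neutrophil markers (31.58%), against 10.8% of 32851 promoters. TTCNNNGAA (STAT) occurred in 7 of the 23 (30.43%), against 8.3% of all promoters, among them the fibrinogen chains Fga and Fgb, the pentraxin Apcs and Hamp. GGGA and TTCC with any 2 bases between them (NF-kB) occurred in 0 of the 23, against 1.47% of all promoters. The letters were chosen with the gene lists known; a match is a description of these windows and not a bound site, and the 4 windows above held no match to the other 2 sets of letters.

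The plasma proteins of the acute phase were higher in the acute-phase livers across most of their list. Of 32 genes listed as positive acute-phase proteins, without the Saa genes, 31 passed the filter, and 24 of the 32 lay above all 4 other livers while 2, Agt and Apoa4, lay below. The background for genes with a count was 12.4% above and 7.48% below, and the median log2 ratio of the list was 1.39, against 0.00 over the 27473 genes with a count. Orm2 had 1820 and 1855 CPM in the acute-phase livers, against 21 CPM in WT replicate 3 and 18.3, 14.1 and 18.2 CPM in the KO livers, a log2 ratio of 6.64. The acute-phase livers were level with each other and 99.96-fold above the rest by their means, and the other 16 livers of the series, of 4 and 8 weeks, reached at most 130.2 CPM. Lcn2 had 1755 and 587 CPM in the acute-phase livers, against 14.8 CPM in WT replicate 3 and 18.4, 12.3 and 13 CPM in the KO livers (log2 ratio 6.28). WT replicate 3 was close to the KO livers in both genes and far from the acute-phase livers.

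The metallothioneins, which bind metals and are known targets of glucocorticoids and interleukin-6, followed. Mt2 had 996 and 613 CPM in the acute-phase livers, against 26.6 CPM in WT replicate 3 and 22, 76.0 and 51.4 CPM in the KO livers (log2 ratio 4.18). Mt1 had 2877 and 1528 CPM in the acute-phase livers, against 110.1 CPM in WT replicate 3 and 73.2, 231 and 162 CPM in the KO livers (log2 ratio 3.93). Unlike Orm2, both metallothioneins reached similar levels in some younger livers, with up to 1582 CPM of Mt2 and 2613 CPM of Mt1. Apcs, which encodes serum amyloid P, the main mouse pentraxin of the acute phase, had 1018 and 461 CPM in the acute-phase livers, against 73.0 CPM in WT replicate 3 and 95.5, 67.2 and 51.0 CPM in the KO livers (log2 ratio 3.36). Crp, the related C-reactive protein, which is known to respond little in mice, had 807 and 651 CPM in the acute-phase livers, against 595 CPM in WT replicate 3 and 395, 575 and 622 CPM in the KO livers, above all others by a log2 ratio of 0.41. The paralogs Orm1, Orm2 and Orm3, and Mt1 and Mt2, share sequence, and how reads were divided within each pair or trio is uncertain.

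Abundant secreted proteins moved by smaller ratios from higher levels. Orm1 had 5416 and 3529 CPM in the acute-phase livers, against 702 CPM in WT replicate 3 and 457, 671 and 512 CPM in the KO livers (log2 ratio 2.93). Hpx, which encodes the haem carrier hemopexin, had 11511 and 9036 CPM in the acute-phase livers, against 2047 CPM in WT replicate 3 and 1765, 2098 and 2214 CPM in the KO livers (log2 ratio 2.34). Hp, which encodes the haemoglobin carrier haptoglobin, had 10870 and 6779 CPM in the acute-phase livers, against 1820 CPM in WT replicate 3 and 2324, 2109 and 2209 CPM in the KO livers (log2 ratio 2.06). In each of these genes the lower acute-phase liver was above the highest of the other 4 by more than the whole range of those 4. Fgl1, which encodes the hepatocyte-secreted fibrinogen-like protein 1, had a log2 ratio of 2.64, and Lrg1, a secreted leucine-rich glycoprotein, one of 2.37. Itih3, a hyaluronan-binding inter-alpha-trypsin inhibitor chain, was at 2.11. The fibrinogen chains stood closer to their usual level, at log2 ratios of 1.19 for Fga, 1.36 for Fgb and 1.35 for Fgg. The copper carrier ceruloplasmin (Cp) was at 1.34 and the endotoxin-binding protein Lbp at 1.10. C3, the central complement component, had 7519 and 6666 CPM in the acute-phase livers, against 3333 CPM in WT replicate 3 and 3842, 3646 and 3827 CPM in the KO livers (log2 ratio 0.95).

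**Figure D1:**
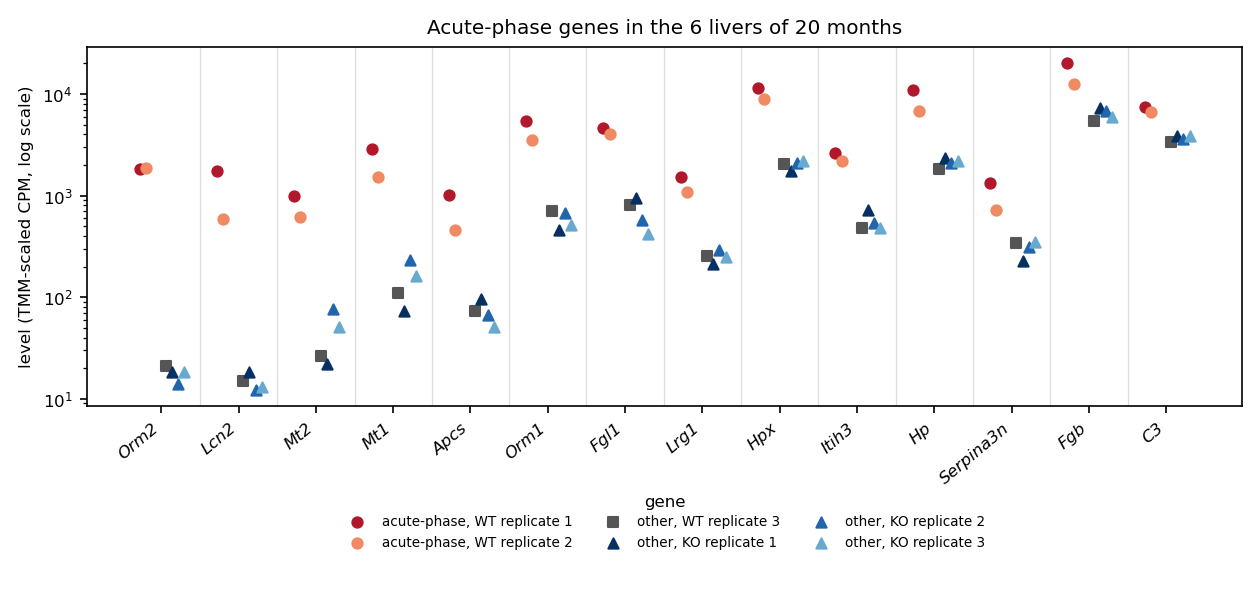
Level of 14 acute-phase genes (CPM, log axis) in the 2 acute-phase livers (left within each gene) and in WT replicate 3 and the 3 KO livers (right); each point is 1 library. In all 14 genes both acute-phase livers lie above the other 4, from a log2 ratio of 6.64 for Orm2 to 0.95 for C3.

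A few acute-phase and related genes did not follow, or did so largely in WT replicate 1. Hamp, which encodes hepcidin, the iron-regulating hormone that interleukin-6 is known to induce, had 1206 and 567 CPM in the acute-phase livers, against 514 CPM in WT replicate 3 and 1953, 1497 and 885 CPM in the KO livers. The groups overlapped, with a log2 ratio of 0.79 over WT replicate 3 and -0.70 over the KO livers. The paralog Hamp2 was below all 4 others, at 4.96 and 3.04 CPM in the acute-phase livers, against 12.7 CPM in WT replicate 3 and 13.9, 54.1 and 58.7 CPM in the KO livers. Il1rn, the interleukin-1 receptor antagonist, was high in WT replicate 1 alone, at 16.0 and 3.51 CPM in the acute-phase livers, against 5.61 CPM in WT replicate 3 and 2.73, 2.50 and 2.76 CPM in the KO livers. Cfb, complement factor B, stayed between 1.56 and 4.50 CPM in all 6 livers, with overlapping groups. Cd14, the endotoxin co-receptor, had 44.5 and 5.01 CPM in the acute-phase livers, against 1.94 CPM in WT replicate 3 and 2.52, 1.47 and 1.91 CPM in the KO livers. Both acute-phase values of Cd14 thus lay above all 4 others, but its log2 ratio of 3.36 became 1.16 without WT replicate 1.

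Of 20 genes listed as carrying the interleukin-6 and interleukin-1 signal, 17 passed the filter, 5 lay above all 4 others and 2 below. Socs3, which STAT3 induces and which shuts off the interleukin-6 receptor, had 36.2 and 20.9 CPM in the acute-phase livers, against 6.28 CPM in WT replicate 3 and 7.07, 6.03 and 6.83 CPM in the KO livers (log2 ratio 2.04). Irak3, an inhibitor of interleukin-1 and Toll-like receptor signalling, had 13.9 and 4.59 CPM in the acute-phase livers, against 1.33 CPM in WT replicate 3 and 2.47, 1.79 and 1.19 CPM in the KO livers (log2 ratio 2.15). The receptor gene Il1r1 had 306 and 173 CPM in the acute-phase livers, against 57.0 CPM in WT replicate 3 and 37.5, 84.8 and 87.9 CPM in the KO livers (log2 ratio 1.84). Its co-receptor Il1rap lay the other way, at 72.8 and 89.8 CPM in the acute-phase livers, against 157 CPM in WT replicate 3 and 138, 175 and 171 CPM in the KO livers (log2 ratio -0.98). Stat3 had a log2 ratio of 0.75, and the adaptor Myd88 one of 0.42. Transcripts of the cytokines themselves were scarce: Il6 did not exceed 0.0447 CPM in any of the 6 livers, which is under the limit of 3 counts, and Tnf did not exceed 1.70 CPM. Cebpb and Cebpd, the C/EBP factors of the response, overlapped between groups: Cebpd was at 34.4 and 13.3 CPM in the acute-phase livers, against 10.7 CPM in WT replicate 3 and 5.94, 15.0 and 10.9 CPM in the KO livers.

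Targets of NF-kB and of interferon did not stand apart as lists. Of 16 NF-kB targets 2 lay above, the adhesion molecules Icam1 and Vcam1, and 2 below, Rela and Sod2, with 0 above when plain CPM was used and 8 above when KO replicate 1 was left out. Nfkbia, the NF-kB inhibitor that is itself a target, had 87.7 and 50.5 CPM in the acute-phase livers, against 54.3 CPM in WT replicate 3 and 82.6, 79.5 and 63.5 CPM in the KO livers. Of 31 interferon-response genes 0 lay above and 0 below, and their median log2 ratio was 0.01. That median was 0.33 over WT replicate 3 and -0.08 over the KO livers, and for NF-kB targets 0.38 and 0.10. Against WT replicate 3 alone, 18 interferon-response genes lay above and 2 below, and 9 NF-kB targets above and 2 below. Of all 12540 filtered genes, 4565 lay above and 4806 below in that comparison. Irf7, a regulator of interferon genes, had 97.4 and 37.8 CPM in the acute-phase livers, against 29.2 CPM in WT replicate 3 and 48.1, 26.4 and 86.1 CPM in the KO livers. Of 16 genes of antigen presentation 3 lay above and 0 below, where the background for genes with a count was 12.4% and 7.48%. The 3, higher by small amounts, were the immunoproteasome subunits Psmb8 and Psmb9, at log2 ratios of 0.59 and 0.34, and the peptide transporter Tap2, at 0.39.

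Genes of neutrophils and of their bone marrow precursors were present in both acute-phase livers and nearly absent from the rest. Of the 20 neutrophil markers, 18 lay above all 4 others, with a median log2 ratio of 4.61; only 7 passed the filter on low counts, and 6 of these lay above. Fpr1 and Stfa2 were the exceptions. The summed level of the list was 4301 and 601 CPM in the acute-phase livers, against 31.6 CPM in WT replicate 3 and 56.7, 27.2 and 31.0 CPM in the KO livers. S100a9 had 1709 and 166 CPM in the acute-phase livers, against 4.11 CPM in WT replicate 3 and 6.38, 3.40 and 3.95 CPM in the KO livers (log2 ratio 7.56, or 5.07 without WT replicate 1). S100a8, the partner of S100a9 in calprotectin, had 386 and 31.4 CPM in the acute-phase livers, against 0.778 CPM in WT replicate 3 and 1.91, 1.25 and 1.02 CPM in the KO livers. Ngp, a protein of neutrophil secondary granules, had 755 and 124 CPM in the acute-phase livers, against 0.833 CPM in WT replicate 3 and 4.47, 1.12 and 1.06 CPM in the KO livers (log2 ratio 7.54). In all 3 genes WT replicate 1 was well above WT replicate 2, and both were beyond the 16 younger livers, where S100a9 reached at most 13.9 CPM, S100a8 6.03 CPM and Ngp 2.55 CPM.

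The granule proteins fall into classes that developing neutrophils are known to make in sequence, and transcripts of each class were found. Of the primary granules, which are made at the promyelocyte stage, the peroxidase Mpo had 263 and 42.3 CPM in the acute-phase livers, against 0.333 CPM in WT replicate 3 and 1.95, 0.626 and 0.340 CPM in the KO livers. The elastase Elane had 95.3 and 22.6 CPM in the acute-phase livers, against 0.389 CPM in WT replicate 3 and 0.651, 0.0894 and 0.212 CPM in the KO livers. Proteinase 3 (Prtn3) had 187 and 56.8 CPM in the acute-phase livers, and at most 0.564 CPM in the other 4. Transcripts of these enzymes are known to be scarce in mature neutrophils. Of the secondary granules, lactoferrin (Ltf) had 421 and 60.7 CPM in the acute-phase livers, against 0.444 CPM in WT replicate 3 and 1.74, 0.581 and 0.594 CPM in the KO livers. The cathelicidin Camp had 172 and 21.9 CPM in the acute-phase livers, and at most 0.738 CPM in the other 4. Of genes used late, the gelatinase Mmp9 had 36.1 and 6.35 CPM in the acute-phase livers, and at most 1.87 CPM in the other 4, and the chemokine receptor Cxcr2 had 9.68 and 1.91 CPM in the acute-phase livers, and at most 0.552 CPM in the other 4. The lineage marker Ly6g had 7.98 and 1.39 CPM in the acute-phase livers, against 0.0555 CPM in WT replicate 3 and 0 counts in the 3 KO livers, which allows up to 0.152, 0.130 and 0.123 CPM. In bulk tissue, more cells of a type and more RNA per cell cannot be told apart, here or for any other cell marker.

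Monocyte and macrophage genes were also higher, by smaller ratios. Of 13 monocyte markers 9 lay above all 4 others, with 8 passing the filter and a median log2 ratio of 1.53. Itgam, the integrin chain CD11b of neutrophils and monocytes, had 88.6 and 9.55 CPM in the acute-phase livers, against 0.778 CPM in WT replicate 3 and 6.81, 1.56 and 1.57 CPM in the KO livers (log2 ratio 3.96). Ccr2, the receptor by which monocytes leave the marrow, had 53.4 and 10.7 CPM in the acute-phase livers, against 1.56 CPM in WT replicate 3 and 3.12, 1.79 and 0.806 CPM in the KO livers (log2 ratio 3.81). Chil3, a chitinase-like protein of monocytes and neutrophils, had 171 and 16.4 CPM in the acute-phase livers, and at most 1.08 CPM in the other 4. Plac8 had a log2 ratio of 2.63.

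Of 15 markers of Kupffer cells, the macrophages resident in the liver, 10 lay above, all of which passed the filter, and 15 lay above without KO replicate 1. Marco, a scavenger receptor for bacteria, had 224 and 110.1 CPM in the acute-phase livers, against 21 CPM in WT replicate 3 and 72.1, 14.0 and 19.6 CPM in the KO livers (log2 ratio 2.38). Cd5l, a macrophage-secreted survival factor, had 422 and 277 CPM in the acute-phase livers, against 89.4 CPM in WT replicate 3 and 91.1, 68.4 and 110 CPM in the KO livers (log2 ratio 1.96). Lyz2, the myeloid lysozyme, had the same log2 ratio, 1.96. Of the genes that define Kupffer cells, Vsig4 lay above all others, while Clec4f and Timd4 overlapped with KO replicate 1: Clec4f had 293 and 220.3 CPM in the acute-phase livers, against 116 CPM in WT replicate 3 and 292, 103 and 139 CPM in the KO livers. The phagocyte oxidase, which makes superoxide, was high in the subunits given here, with Ncf1, of the cytosol, at 85.0 and 18.1 CPM in the acute-phase livers, against 4.28 CPM in WT replicate 3 and 7.46, 4.51 and 4.75 CPM in the KO livers (log2 ratio 3.18). Ncf4 followed at a log2 ratio of 2.52. The membrane subunit Cybb had 116 and 35.4 CPM in the acute-phase livers, against 12.2 CPM in WT replicate 3 and 33.0, 10.9 and 11.1 CPM in the KO livers (log2 ratio 2.14). Its partner Cyba was at a log2 ratio of 1.94. In the list of 18 antimicrobial and oxidative-defence genes, 10 lay above and 2 below, Gclc and Gclm, the subunits of the enzyme that starts glutathione synthesis. Slpi, an inhibitor of elastase, had 21.4 and 20.1 CPM in the acute-phase livers, against 1.5 CPM in WT replicate 3 and 3.95, 10.1 and 3.82 CPM in the KO livers.

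Lymphocyte genes shared this pattern only in a few markers. Of 16 T and natural killer cell markers 4 lay above (Nkg7, Gzma, Klrb1c and Ncr1), against 12.4% of all genes with a count. These were all at under 11 CPM and none passed the filter. The median log2 ratio of the list was 0.31, with 15 of 16 ratios above 0. Cd3e, which defines T cells, had 0.555 and 0.722 CPM in the acute-phase livers, against 0.167 CPM in WT replicate 3 and 1.21, 0.447 and 0.467 CPM in the KO livers. Of 13 B and plasma cell markers 0 lay above or below. Among chemokines, Cxcl14 had 97.6 and 44.8 CPM in the acute-phase livers, against 2.94 CPM in WT replicate 3 and 3.38, 2.28 and 2.46 CPM in the KO livers (log2 ratio 4.46), and at most 3.32 CPM in the 16 younger livers. Ccl6, a myeloid chemokine, was at a log2 ratio of 2.06, and Cxcl16 at 0.59. Cxcl13, which attracts B cells, was high in WT replicate 1 alone, at 143 and 6.30 CPM in the acute-phase livers, against 2.67 CPM in WT replicate 3 and 15.4, 2.90 and 2.55 CPM in the KO livers. Cxcl1, a neutrophil-attracting chemokine of hepatocytes, had 23.3 and 21.8 CPM in the acute-phase livers, against 20.7 CPM in WT replicate 3 and 53.8, 16.7 and 12.5 CPM in the KO livers, so the groups overlapped.

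**Figure D2:**
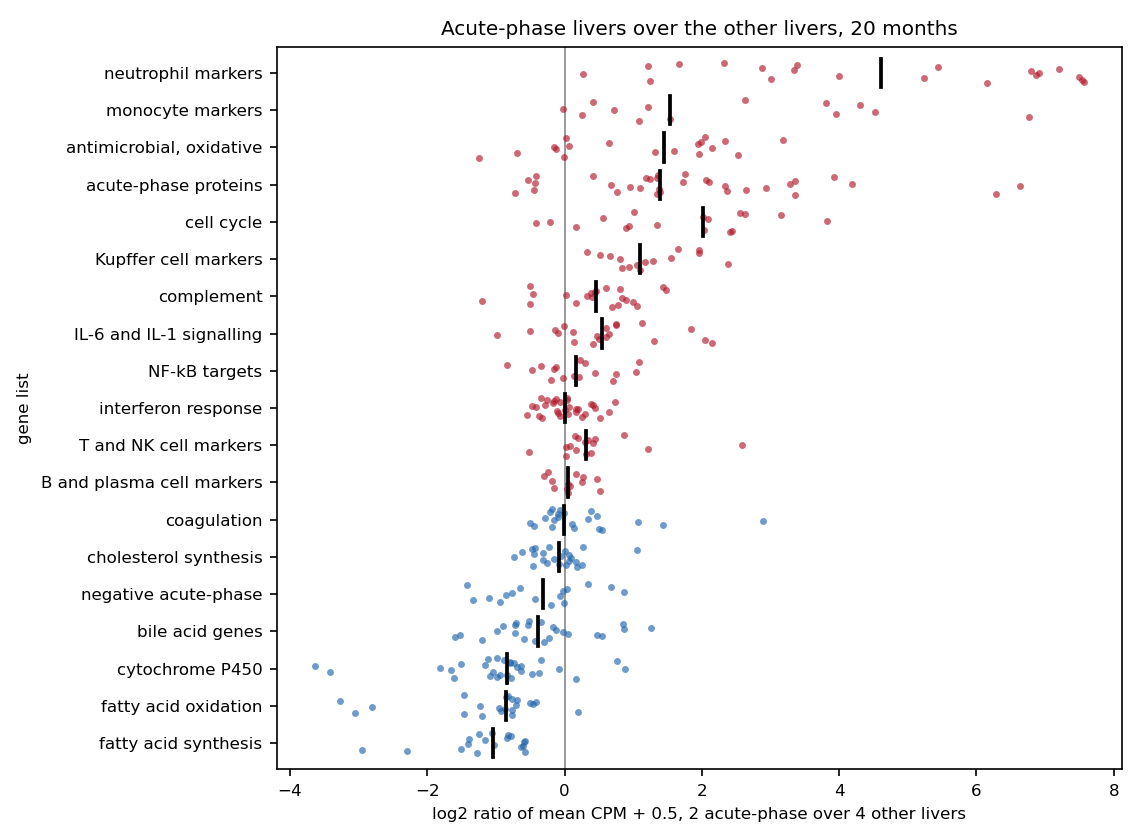
Log2 ratio of the acute-phase livers over the other 4 livers of 20 months for each member of 19 gene lists; each point is 1 gene and the black bar is the median over members with a count. Medians run from 4.61 for neutrophil markers to -1.04 for fatty acid synthesis, with interferon-response genes at 0.01.

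Complement genes were moderately higher as a list and coagulation genes were not. Of 21 complement genes 12 lay above all 4 others and 1 below, with a median log2 ratio of 0.46. C4b had 1218 and 1256 CPM in the acute-phase livers, against 718 CPM in WT replicate 3 and 714, 694 and 763 CPM in the KO livers (log2 ratio 0.78). The terminal components C6, C8a and C9 had log2 ratios of 1.00, 0.83 and 0.90, while the lectin Mbl2 was below, at -0.51. C1qa, made by macrophages, was at 1.06.

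Of 21 coagulation genes 6 lay above and 2 below, with a median log2 ratio of -0.01. Pros1, the anticoagulant protein S, had 251 and 134 CPM in the acute-phase livers, against 72.7 CPM in WT replicate 3 and 73.2, 74.1 and 65.0 CPM in the KO livers (log2 ratio 1.43). Serpinf2, the plasmin inhibitor, was at 0.54. The anticoagulants protein C (Proc) and antithrombin (Serpinc1) lay below, at log2 ratios of -0.51 and -0.45. Of 16 iron genes, all of which passed the filter, 3 lay above, Tfrc, Slc11a2 and Tfr2, and 2 below, Hamp2 and Ftl1. These counts were close to the background of 14.7% and 12.2% of filtered genes. Tfrc, the transferrin receptor, had 52.7 and 19.5 CPM in the acute-phase livers, against 16.6 CPM in WT replicate 3 and 13.6, 14.2 and 18.6 CPM in the KO livers.

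Proliferation genes were high in WT replicate 1 and less so in WT replicate 2. Of 17 cell cycle genes 11 lay above all 4 others, 14 passed the filter, and the median log2 ratio was 2.02. Mki67, the proliferation marker, had 83.3 and 13.3 CPM in the acute-phase livers, against 1.61 CPM in WT replicate 3 and 6.72, 2.19 and 1.27 CPM in the KO livers (log2 ratio 3.82). Top2a, the topoisomerase of dividing cells, had 47.5 and 9.65 CPM in the acute-phase livers, against 1.5 CPM in WT replicate 3 and 6.07, 2.23 and 1.32 CPM in the KO livers (log2 ratio 3.15). Ccnd1, the cyclin of the start of the cycle in hepatocytes, overlapped, at 2.78 and 4.95 CPM in the acute-phase livers, against 4.61 CPM in WT replicate 3 and 6.94, 4.20 and 5.52 CPM in the KO livers, as did Pcna and Tk1. With all 20 other libraries as the comparison, 0 of the filtered cell cycle genes lay above; Mki67, for example, reached 39.8 CPM in a younger liver. The neutrophil list moves with the cell cycle genes across the 2 acute-phase livers, and which cells held these transcripts was not tested.

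Genes of injury and remodelling were mixed. Anxa1, an anti-inflammatory phospholipid-binding protein, had 209 and 30.8 CPM in the acute-phase livers, against 5.33 CPM in WT replicate 3 and 8.76, 7.46 and 5.05 CPM in the KO livers (log2 ratio 4.08). S100a6 and Slfn4, which is known from myeloid cells, were at log2 ratios of 4.11 and 4.85. Spp1, which encodes osteopontin, had 188 and 81.6 CPM in the acute-phase livers, against 20.6 CPM in WT replicate 3 and 23.7, 23.3 and 19.9 CPM in the KO livers (log2 ratio 2.60). In the oncofetal and tumour list, 7 of 14 genes lay above, led by the trefoil peptide Tff3 at 3.68 and the surface protein Cd24a at 3.32. Afp, the fetal albumin-like protein, overlapped, at 2.12 and 2.22 CPM in the acute-phase livers, against 1.22 CPM in WT replicate 3 and 3.43, 1.61 and 1.87 CPM in the KO livers. Of 19 stellate cell and matrix genes 5 lay above and 1 below, with Col4a1, a basement membrane collagen, at a log2 ratio of 0.83, while Col1a1, the main scar collagen, overlapped.

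The carriers that are known to fall in the acute phase were lower in part. Of 16 listed, all of which passed the filter, 7 lay below all 4 others and 2 above, Fetub and Itih1. Alb, albumin, had 24440 and 36211 CPM in the acute-phase livers, against 44074 CPM in WT replicate 3 and 48052, 61075 and 64718 CPM in the KO livers (log2 ratio -0.85). Ttr, the thyroxine and retinol-complex carrier transthyretin, had 1383 and 3119 CPM in the acute-phase livers, against 5297 CPM in WT replicate 3 and 3895, 6532 and 6917 CPM in the KO livers (log2 ratio -1.33). Serpina6, the corticosteroid-binding globulin, had 45.0 and 198 CPM in the acute-phase livers, against 328 CPM in WT replicate 3 and 272, 333 and 373 CPM in the KO livers (log2 ratio -1.42). Pon1, an antioxidant enzyme of high-density lipoprotein, had a log2 ratio of -1.10. WT replicate 1, with the higher Saa1, had the lower value in each of the first 3 genes. Trf, transferrin, overlapped and pointed the other way, at 1187 and 695 CPM in the acute-phase livers, against 359 CPM in WT replicate 3 and 785, 436 and 496 CPM in the KO livers, and Igf1 stayed between 538 and 628 CPM in all 6.

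Fatty acid oxidation and fatty acid synthesis, which usually run in opposite directions, were both lower. Of 21 oxidation and ketogenesis genes, all of which passed the filter, 0 lay above all 4 others and 12 below, with a median log2 ratio of -0.85. The list holds targets of PPAR-alpha, the fatty acid sensor of hepatocytes. Vnn1, a pantetheinase, had 6.42 and 7.74 CPM in the acute-phase livers, against 120.1 CPM in WT replicate 3 and 28.3, 53.1 and 88.6 CPM in the KO livers (log2 ratio -3.27). Acot1, a cytosolic acyl-CoA thioesterase, had 2.08 and 2.32 CPM in the acute-phase livers, against 30.2 CPM in WT replicate 3 and 11.8, 23.8 and 21.9 CPM in the KO livers (log2 ratio -3.05). Acaa1b, a peroxisomal thiolase, had 31.8 and 64.1 CPM in the acute-phase livers, against 517 CPM in WT replicate 3 and 178, 309 and 357 CPM in the KO livers (log2 ratio -2.81). In all 3 the lowest of the other livers was KO replicate 1. Ppara itself had 14.9 and 25.0 CPM in the acute-phase livers, against 49.9 CPM in WT replicate 3 and 31.7, 43.4 and 60.7 CPM in the KO livers (log2 ratio -1.20). Cpt1a, the gate of mitochondrial uptake, overlapped with KO replicate 1 only, at 317 and 324 CPM in the acute-phase livers, against 552 CPM in WT replicate 3 and 274, 469 and 533 CPM in the KO livers. Without KO replicate 1, 20 of the 21 genes lay below. With all 20 other libraries as the comparison, 3 lay below, against 1.3% of filtered genes. The summed level of the list was 4646 and 5141 CPM in the acute-phase livers, within the 3476 to 21356 CPM of the 16 younger livers.

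Of 18 genes of fatty acid synthesis, all of which passed the filter, 0 lay above and 13 below, with a median log2 ratio of -1.04, and all 18 ratios were below 0. Me1, malic enzyme, which supplies NADPH, had 21.9 and 44.2 CPM in the acute-phase livers, against 317 CPM in WT replicate 3 and 209, 291 and 219 CPM in the KO livers (log2 ratio -2.95). Elovl6, the elongase of palmitate, had 16.6 and 37.6 CPM in the acute-phase livers, against 82.6 CPM in WT replicate 3 and 88.4, 82.9 and 59.0 CPM in the KO livers (log2 ratio -1.51). Fasn, fatty acid synthase, had 30.3 and 156 CPM in the acute-phase livers, against 173 CPM in WT replicate 3 and 357, 284 and 176 CPM in the KO livers (log2 ratio -1.40). Here WT replicate 2 was close to the other livers and WT replicate 1 far below. Mlxipl, the glucose-responsive factor ChREBP, was at -1.27. With all 20 other libraries as the comparison, 1 of the 18 genes lay below. The summed level of the list was 7275 and 8309 CPM in the acute-phase livers, within the 1712 to 16882 CPM of the 16 younger livers.

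Outside these lists, the largest negative log2 ratios were those of Rgs16, Slc17a8 and Car3. Rgs16, a regulator of G-protein signalling that changes with feeding and hour of day in mouse liver, had 9.54 and 22.7 CPM in the acute-phase livers, against 86.8 CPM in WT replicate 3 and 178, 386 and 374 CPM in the KO livers (log2 ratio -3.95, or -2.39 over WT replicate 3 alone). Slc17a8, a vesicular glutamate transporter, had 3.54 and 3.56 CPM in the acute-phase livers, against 49.8 CPM in WT replicate 3 and 96.9, 47.9 and 44.9 CPM in the KO livers (log2 ratio -3.90). Car3, carbonic anhydrase 3, had 23.5 and 510 CPM in the acute-phase livers, against 4290 CPM in WT replicate 3 and 2675, 3393 and 3748 CPM in the KO livers (log2 ratio -3.72). Car3 is also abundant in fat and muscle. The fat marker Adipoq was at or below 0.0447 CPM and the muscle marker Ckm at or below 0.104 CPM in all 6 livers. Cidec, a lipid droplet protein, had 2.67 and 1.70 CPM in the acute-phase livers, against 58.8 CPM in WT replicate 3 and 3.64, 21.8 and 37.1 CPM in the KO livers (log2 ratio -3.52).

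**Figure D3:**
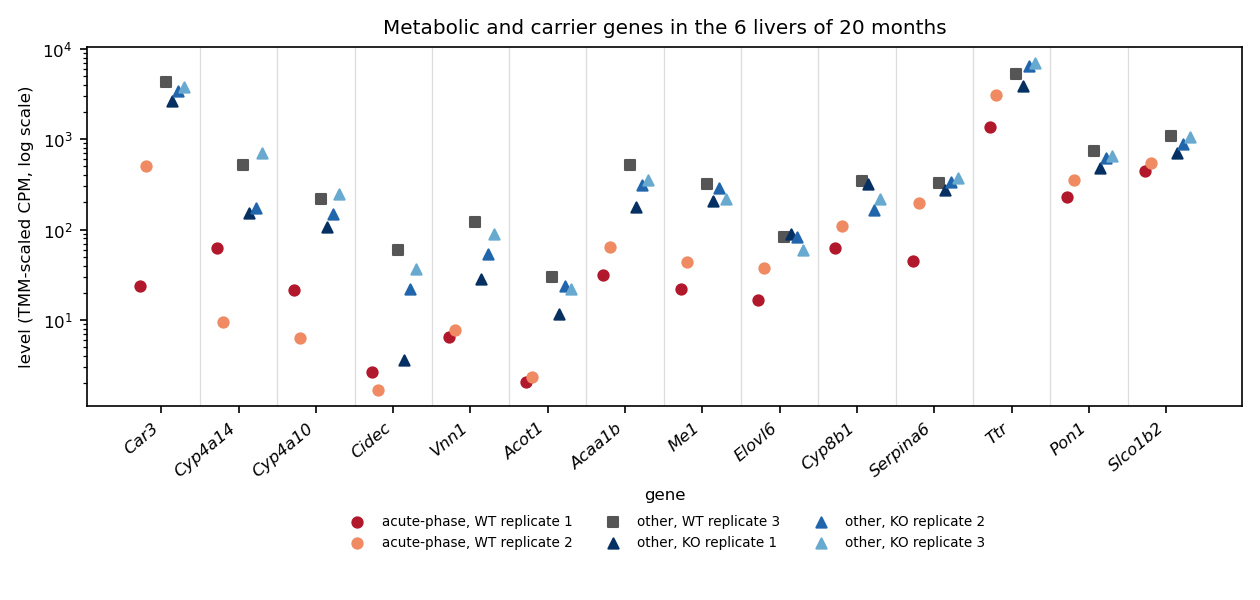
Level of 14 genes that were lower in the acute-phase livers (CPM, log axis), with the 2 acute-phase livers left within each gene and WT replicate 3 and the 3 KO livers right; each point is 1 library. Both acute-phase livers lie below the other 4 in all 14 genes, with log2 ratios from -3.72 for Car3 to -0.90 for Slco1b2.

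Cytochrome P450 enzymes were lower as a list. Of 29 with a count, 28 passed the filter, 14 lay below all 4 others and 2 above, with a median log2 ratio of -0.84, and 22 lay below when KO replicate 1 was left out. The fatty acid hydroxylases, which are classic PPAR-alpha targets, led. Cyp4a10 had 21.7 and 6.30 CPM in the acute-phase livers, against 218 CPM in WT replicate 3 and 106, 147 and 247 CPM in the KO livers (log2 ratio -3.63). Cyp4a14 had 62.1 and 9.39 CPM in the acute-phase livers, against 525 CPM in WT replicate 3 and 151, 172 and 701 CPM in the KO livers (log2 ratio -3.42). In both it was WT replicate 2, the liver with the lower Saa1, that had the lower level. Cyp2e1, the pericentral oxidase of ethanol and paracetamol, had 3033 and 5191 CPM in the acute-phase livers, against 7283 CPM in WT replicate 3 and 5199, 7458 and 7611 CPM in the KO livers. Cyp3a11, a main drug-metabolising P450, overlapped, at 551 and 1114 CPM in the acute-phase livers, against 2013 CPM in WT replicate 3 and 764, 1287 and 1911 CPM in the KO livers. The 2 above were Cyp2c70, which makes muricholic acids in mice, at a log2 ratio of 0.77, and Cyp3a13 at 0.88. Members of the Cyp2c, Cyp2d and Cyp4a clusters share sequence, and reads may be divided wrongly among them.

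Of 24 genes of bile acid synthesis and transport with a count, 2 lay above (Slco1a4 and the scarce Slc51b) and 9 below, with a median log2 ratio of -0.39. Cyp8b1, the 12-alpha-hydroxylase that makes cholic acid, had 62.3 and 109 CPM in the acute-phase livers, against 342 CPM in WT replicate 3 and 316, 163 and 220 CPM in the KO livers (log2 ratio -1.60). Cyp7a1, the rate-limiting enzyme of bile acid synthesis, overlapped, at 99.1 and 183 CPM in the acute-phase livers, against 148 CPM in WT replicate 3 and 159, 122 and 116 CPM in the KO livers. Slco1b2, a sinusoidal uptake transporter, had 448 and 551 CPM in the acute-phase livers, against 1087 CPM in WT replicate 3 and 703, 877 and 1070 CPM in the KO livers (log2 ratio -0.90). Abcb11, the bile salt export pump, had 252 and 395 CPM in the acute-phase livers, against 488 CPM in WT replicate 3 and 589, 512 and 538 CPM in the KO livers (log2 ratio -0.72). Abcc3, a basolateral export pump, was at -1.21. Slc10a1, the deleted transporter, differed by a log2 ratio of only -0.13 between the acute-phase livers and WT replicate 3, with WT replicate 3 between the 2.

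Of 20 genes of urea synthesis, gluconeogenesis and amino acid breakdown, 3 lay above and 3 below, close to the background of 14.7% and 12.2%. Tat, the tyrosine aminotransferase induced by glucocorticoids, had 2894 and 2674 CPM in the acute-phase livers, against 1719 CPM in WT replicate 3 and 839, 1986 and 1586 CPM in the KO livers (log2 ratio 0.86). Got1 and Pck1, which feed gluconeogenesis, were at 0.82 and 0.47. Otc, an enzyme of the urea cycle, had 277 and 469.8 CPM in the acute-phase livers, against 902 CPM in WT replicate 3 and 532, 770.5 and 809 CPM in the KO livers (log2 ratio -1.01), and Nags and Gldc also lay below. Among targets of ATF4, Asns, asparagine synthetase, had 13.2 and 29.2 CPM in the acute-phase livers, against 1.83 CPM in WT replicate 3 and 1.52, 1.21 and 0.297 CPM in the KO livers. Of 16 ATF4 targets with a count 7 lay above, Asns, Psat1, Mthfd2, Phgdh, Chac1, Nupr1 and Slc7a11. The 5 below were Gdf15, Trib3, Atf5, Ddit3 and Fgf21, with Trib3 and Ddit3 at log2 ratios of -0.73 and -0.35. Of the 11 that passed the filter 3 lay above and 4 below.

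The 2 acute-phase livers differed from each other. Among all filtered genes WT replicate 1 was above WT replicate 2 in 47.8%. Positive acute-phase proteins were above in 29 of 32 genes with a median log2 ratio of 0.64 (WT replicate 1 over WT replicate 2), neutrophil markers in 20 of 20 with a median of 2.51, and cell cycle genes in 15 of 17 with a median of 1.61. Orm2, at -0.03, was level between the 2 livers, and Fgl1, at 0.19, nearly so. Male-biased genes, which depend on the pulses of growth hormone in male mice, were lower in WT replicate 1 in all 19 cases, with a median of -1.54. Elovl3, an elongase of this group, had 7.43 and 76.3 CPM in the acute-phase livers, against 135 CPM in WT replicate 3 and 104, 135 and 139.6 CPM in the KO livers. Mup7, a major urinary protein, had 64.5 and 1902 CPM in the acute-phase livers, against 2077 CPM in WT replicate 3 and 690.2, 1651 and 769 CPM in the KO livers. In these genes WT replicate 2 was at the level of the other livers or closer to it, and WT replicate 1 was far below.

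Cholesterol synthesis and endoplasmic reticulum chaperones divided the acute-phase livers as well. All 23 cholesterol genes were lower in WT replicate 1, with summed levels of 1849 and 3779 CPM in the acute-phase livers, against 3174 CPM in WT replicate 3 and 4264, 3120 and 2222 CPM in the KO livers. With both acute-phase livers required, the list had 0 genes above and 0 below. WT replicate 1 alone had 15 below all 4 others and WT replicate 2 alone had 10 above. Of all 12540 filtered genes, WT replicate 1 alone had 3935 below and WT replicate 2 alone had 2835 above. Hspa5, the chaperone BiP, had 562 and 1217 CPM in the acute-phase livers, against 799 CPM in WT replicate 3 and 434, 699 and 498 CPM in the KO livers. Creld2, a target of the unfolded protein response, had 38.9 and 169 CPM in the acute-phase livers, against 94.9 CPM in WT replicate 3 and 29.2, 59.7 and 27.2 CPM in the KO livers. WT replicate 2 alone was above all 4 others in 15 of the 17 genes of that list, against the same 2835 of 12540 filtered genes. Both acute-phase livers were above in 1 of the 17. Clock genes differed between the acute-phase livers too, with WT replicate 1 above WT replicate 2 in 5 of 16 and a median log2 ratio of -0.73. Dbp is given above. Arntl was at 5.00 and 1.86 CPM in the acute-phase livers. It was at 1.5 CPM in WT replicate 3 and 7.55, 1.12 and 1.66 CPM in the KO livers. In Dbp and Arntl, KO replicate 1 was closest to WT replicate 1. Its cholesterol sum was nevertheless the highest of these livers, 4264 CPM against 1849 CPM in WT replicate 1. Its summed level of the chaperone list was close to that of WT replicate 1, 4588 against 4568 CPM. The part of the clock genes in these differences was not tested.

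**Figure D4:**
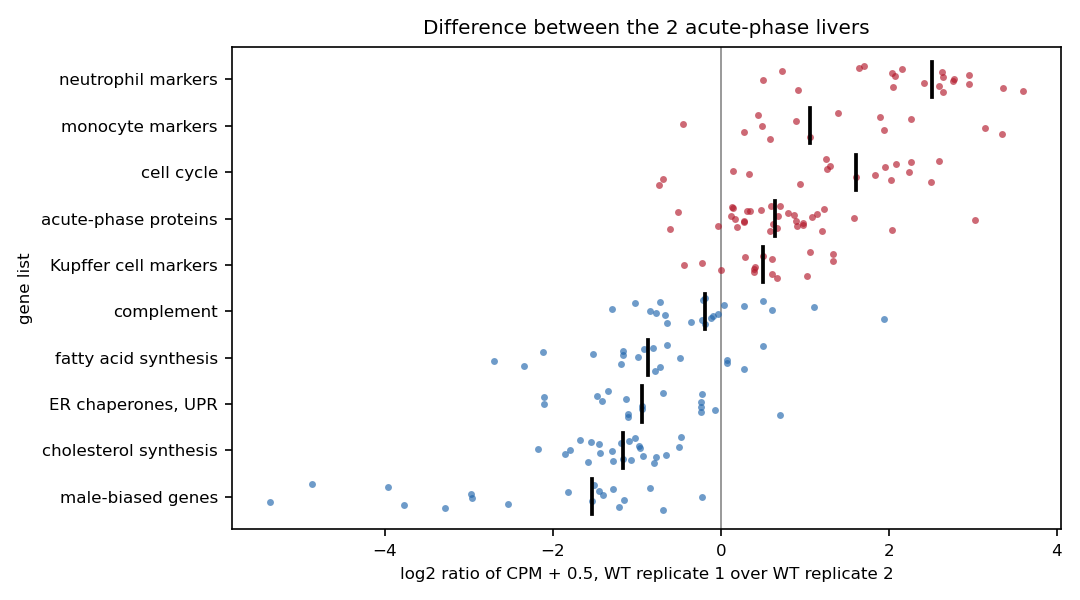
Log2 ratio of WT replicate 1 over WT replicate 2, the 2 acute-phase livers, for each member of 10 gene lists; each point is 1 gene and the black bar is the median. Medians run from 2.51 for neutrophil markers and 0.64 for acute-phase proteins to -1.17 for cholesterol synthesis and -1.54 for male-biased genes.

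The 16 livers of 4 and 8 weeks, which the Saa1 rule did not use, show how far these genes go with Saa1 at much lower levels. Their Saa1 ranged from 6.1 to 1389.7 CPM before TMM scaling. Sequencing differed with age. No 4-week library held more than 6956124 counts in genes, while every library of the older mice held at least 18032355. The share of reads outside genes was below 9.7% in all 4-week livers but at least 13.91% in all 8-week livers, with the 20-month livers spread between 7.0% and 14.72%. The part of these differences in comparisons across ages, here and elsewhere in the results, was not tested. In KO livers of 8 weeks, replicates 1 to 6 had 14.6, 153, 321, 40.2, 494 and 99.4 CPM of Saa1, and 9.09, 27.7, 10.8, 4.19, 15.0 and 4.86 CPM of Orm2. Their Lcn2 was at 61.8, 136, 19.6, 2.35, 55.7 and 41.4 CPM. The KO liver with the highest Orm2 and Lcn2, replicate 2, thus had less Saa1 than replicates 3 and 5, and replicate 1, lowest in Saa1, had more Lcn2 than all but replicate 2. In WT livers of 8 weeks, replicates 1, 2 and 4 had 934, 1113 and 1365 CPM of Saa1 and 118, 130.2 and 111 CPM of Orm2, while replicate 3 had 51.9 CPM of Saa1 and 5.02 CPM of Orm2. Lcn2 was at 116, 73.0 and 165 CPM in the first 3 and at 5.22 CPM in replicate 3. S100a9 was scarce in all 4, at 2.57, 1.09 and 3.25 CPM in replicates 1, 2 and 4 and 0.597 CPM in replicate 3. Against all 20 other libraries, 11 of the 31 filtered acute-phase genes lay above in both acute-phase livers, among them Orm1, Orm2, Lcn2, Hp, Hpx, Lrg1 and Fgl1, against 4.45% of filtered genes.

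A slope on log2 Saa1 was tested for each gene in these 16 livers by edgeR's quasi-likelihood test with a mean for each genotype and age. After Benjamini-Hochberg adjustment 0 of 15828 genes passed 0.05, by edgeR and by DESeq2, and 679 (4.29%) had an unadjusted p under 0.05 by edgeR. Orm2 had a slope of 0.50 log2 units per log2 unit of Saa1 (SE 0.14, unadjusted p = 0.00308, edgeR adjusted p = 0.944). The slopes of Hpx, Lrg1 and Orm1 were each 0.14 (SE 0.049, 0.055 and 0.058, edgeR adjusted p = 0.944), and that of Hp was 0.12 (SE 0.053, edgeR adjusted p = 0.944). Lcn2 had a slope of 0.43 (SE 0.22) and S100a9 one of -0.02 (SE 0.19), both with an interval that spans 0 at 2 SE. By sign alone, 26 of 32 acute-phase genes had a positive slope (81.2%), against 49.8% of all genes tested, and fatty acid oxidation genes had 1 of 21 positive and cholesterol genes 0 of 23. Lists of other kinds had shares as high, with 26 of 31 interferon-response genes (83.9%), 16 of 20 complement genes (80.0%) and 7 of 8 cholangiocyte markers (87.5%), so the share is not particular to the acute-phase list. The genes of a list vary together across the same 16 livers, so these shares carry no test.

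The genes ranked highest by that slope included Prg4, which encodes the lubricating glycoprotein proteoglycan 4, with a slope of 0.17 (SE 0.037, unadjusted p = 0.000405, edgeR adjusted p = 0.944). At 20 months Prg4 had 259 and 214 CPM in the acute-phase livers, against 61.1 CPM in WT replicate 3 and 61.4, 51.5 and 59.4 CPM in the KO livers (log2 ratio 2.01). Tmc5, a transmembrane channel-like gene, had a slope of 0.66 (SE 0.16, unadjusted p = 0.00203, edgeR adjusted p = 0.944), and at 20 months it had 2.78 and 5.52 CPM in the acute-phase livers, against 0 counts in WT replicate 3, KO replicate 1 and KO replicate 3 and 0.0447 CPM in KO replicate 2. Gpam, which starts triglyceride synthesis, had a slope of -0.24 (SE 0.066, unadjusted p = 0.00223, edgeR adjusted p = 0.944), and at 20 months it had 12.4 and 22.1 CPM in the acute-phase livers, against 33.7 CPM in WT replicate 3 and 30.2, 30.9 and 30.4 CPM in the KO livers. Other genes of that ranking went the other way. Mga had a slope of 0.14 (SE 0.033, unadjusted p = 0.000711, edgeR adjusted p = 0.944) and lay below all 4 others in the acute-phase livers (log2 ratio -0.34). Mettl3 had a slope of 0.16 (SE 0.041, unadjusted p = 0.00121, edgeR adjusted p = 0.944) and also lay below (log2 ratio -0.26). None of these genes passed adjustment. Of the 8 genes ranked highest with a positive slope, Prg4, Stap2 and Tmc5 lay above in the acute-phase livers, Mga and Mettl3 below, and 3 overlapped. Of the 8 with a negative slope, Gpam and Cyp2c55 lay below and 6 overlapped.

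**Figure D5:**
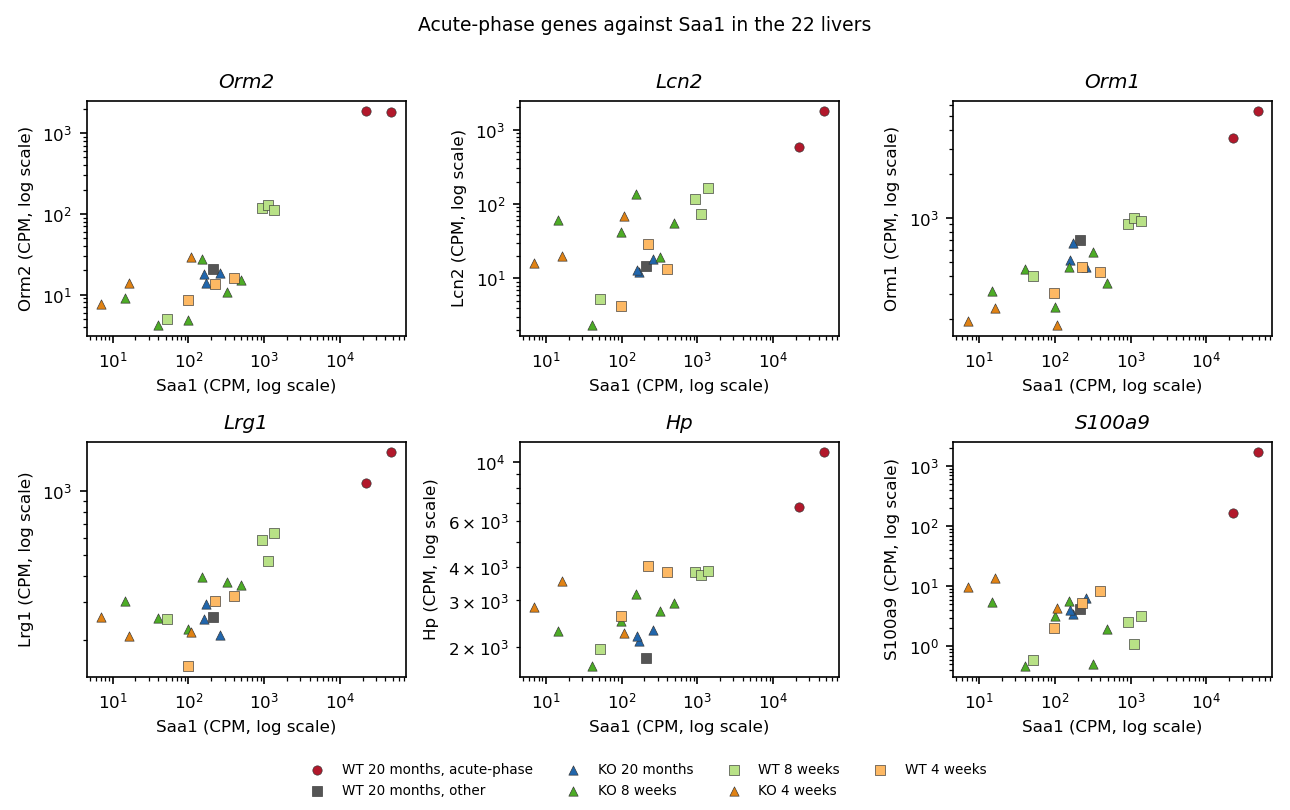
Level of 6 genes against Saa1 in all 22 libraries (CPM, both axes log); red circles are the 2 acute-phase livers, other symbols the remaining genotypes and ages. Orm2 spans 4.19 to 1855 CPM, and S100a9 stays at or below 13.9 CPM outside the acute-phase livers, where it is 1709 and 166 CPM.

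The labelled comparison at this age sets KO against WT livers, and its WT group holds both acute-phase livers. By edgeR 0 of 13966 genes passed an adjusted p of 0.05 and 772 (5.53%) had an unadjusted p under 0.05, while DESeq2 called 8 genes higher and 35 lower in KO. Orm2 had a log2 difference of -6.19 (SE 1.4, edgeR adjusted p = 0.821), with WT replicate 3 at the KO level. Without WT replicate 3 edgeR called 71 genes, 7 higher and 64 lower in KO. Those lower included Orm1, Orm2, Lcn2, Apcs, Hpx, Itih3, Mt1, Mt2, Socs3, S100a8, S100a9, Ngp, Mpo and Elane, and those higher Acot1, Acot3, Me1, Rgs16 and Slc17a8. These contrasts use the libraries of the Saa1 rule, so they restate the split and are no further evidence of it.

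At the younger ages, where the genotype was compared in libraries that the rule did not use, acute-phase genes did not share a direction. At 8 weeks edgeR called 1 gene higher (0.00689%) and 3 lower (0.0207%) in KO of 14522. None of these calls was in the acute-phase list, and Slc10a1 itself was lower in KO by -2.72 (SE 0.16, edgeR adjusted p = 9e-05). By edgeR 10.4% of genes had an unadjusted p under 0.05. Acute-phase genes of both signs were among them, such as Orm2 and Orm1, lower in KO, and Agt and Apoa4, higher in KO. Orm2 had a log2 difference of -2.91 (SE 0.75, edgeR adjusted p = 0.474) and Orm1 one of -1.02 (SE 0.28, edgeR adjusted p = 0.474). At 4 weeks edgeR called 576 genes (5.17%) higher and 624 (5.6%) lower in KO of 11144, and of 30 acute-phase genes tested 4 rose and 3 fell. Hamp rose by 3.48 (SE 0.50, edgeR adjusted p = 0.0068), Apcs by 1.30 (SE 0.24, edgeR adjusted p = 0.0144), Serpina3m by 1.33 (SE 0.31, edgeR adjusted p = 0.034) and Itih3 by 1.09 (SE 0.23, edgeR adjusted p = 0.0241). Orm1 fell by 0.91 (SE 0.23, edgeR adjusted p = 0.0419), Crp by 1.22 (SE 0.24, edgeR adjusted p = 0.0197) and Cfb by 1.90 (SE 0.50, edgeR adjusted p = 0.045). Neutrophil markers held no call at either younger age, with 5 tested at 4 weeks. The labels give 1 liver per library and do not say that each came from a separate animal, so these p-values measure the spread between samples.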

How the data were processed

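Gene counts of polyA RNA sequencing were deposited as 1 table per sample, with 47729 gene lines and 5 summary lines; HISAT2 2.0.4, HTSeq 0.6.1p1 and GRCm38 are named in the submitters' processing notes. The strand setting is not given in the sources used here, so overlapping and near-identical genes are uncertain. Depth was 5496425 to 26789350 counts per library; sums of counts leave out the summary lines. Symbols came from GENCODE M21 for 47310 genes. Levels are CPM with TMM factors of all 22 libraries; genes were filtered with filterByExpr on the 6 libraries of 20 months. KO was set against WT at each age, and slopes on Saa1 fitted in the 16 younger libraries, with edgeR 4.0.16 (quasi-likelihood F-test, two-sided, Benjamini-Hochberg, 0.05) in R 4.3.3, tested on simulated data; DESeq2 1.42.0 was an alternative, beside plain CPM, other normalization, no filter, another pseudocount and libraries left out. Replicate numbers were not taken to pair the samples, because the labels name no shared animal or batch. The correlations of deviations between KO and WT livers of the same number were 0.40, 0.03 and 0.45 at 20 months. At the younger ages they ran from -0.38 to 0.08. What the numbers share was not tested.

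Genes named are a core panel of 24, the 10 higher and 10 lower with the largest ratios at a mean of at least 5 CPM, the 3 largest of each of 37 gene lists (633 symbols, 3 unmatched) with at least 3 members beyond all 4 others, and the 8 leading genes of each slope sign; other list members and the sequences shown were chosen after their values were seen. The livers, lists and rules were chosen with earlier results of these data known. Some genes that the rule names are not reported here.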

Additional observations from a re-analysis of the deposited data

Results flagged for a closer look

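In the WT livers of 8 weeks, replicate 3 lay far from the other 3 in 3 acute-phase genes. Its Orm2 was at 5.02 CPM, where the others ranged from 111 to 130.2 CPM. Its Orm1 was at 400.0 CPM, where the others ranged from 911 to 999 CPM, and its Hp at 1962 CPM, where the others ranged from 3739 to 3891 CPM. Dixon's criterion for the gap to the nearest library picked out these values among 20 combinations of a gene and a group examined, 10 genes each in the 6 KO and the 4 WT libraries of 8 weeks, and chance alone picks out about 1 in 20. The same library had the lowest Saa1 of its group, 51.9 CPM against 934, 1113 and 1365 CPM, so the 4 genes are not independent of each other. The cause was not tested.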

How the results depend on the processing

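All results rest on 2 acute-phase livers of 1 genotype, so state, genotype and the features of these animals cannot be told apart, and each count depends on which livers are set against them. Genes above all others numbered 1846, against 3397 with no filter on low counts, 4565 against WT replicate 3 alone, 558 against all 20 other libraries (added after seeing the data) and 2015 to 3866 with 1 library left out; genes below numbered 1534, against 4806, 163 and 1652 to 3935 under the last 3 of these. Fewer or more libraries make separation easier or harder by construction. Of 38 genes whose log2 ratio was recomputed, those with both acute-phase livers beyond all 4 others kept their sign under these alternatives, but 4 that overlapped did not: Hamp, at -0.45, became 0.79 against WT replicate 3 alone, Slc10a1, at 0.86, became -0.13, Nfkbia, at -0.02, became 0.35, and Cyp7a1, at 0.05, became -0.86 against all 20 others. Without WT replicate 1, Il1rn at 1.39 became 0.04 and Cd14 at 3.36 became 1.16. For KO against WT at 20 months, the count of 0 became 43 with DESeq2 and 0 to 71 with a library left out. At 8 weeks the count of 4 became 107 with DESeq2 and 1 to 5 with a library left out, and at 4 weeks the count of 1200 became 2048 with no filter and 184 to 2012. With the replicate number as a block the counts were 0 at 20 months, 0 at 8 weeks and 590 at 4 weeks; the labels do not say what the numbers share. The Saa1 slope called 210 genes in the 4-week livers alone, where Orm2 had a slope of 0.46 (edgeR adjusted p = 0.0262) and the slope of Hp reversed to -0.03 (edgeR adjusted p = 0.896); over its other alternatives the count was 0. The cause of these shifts was not tested. Genes near 3 counts per library, such as Il6 and Ly6g in the KO livers, are limited by depth.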

Other observations

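Some further groups were examined in the acute-phase livers. The background beside their counts was 12.4% above and 7.48% below, over all genes with a count. Endothelial genes were higher in part, with 5 of 15 above all 4 other livers and 1 below; Vwf, which anchors platelets to vessel walls, had 16.3 and 9.81 CPM in the acute-phase livers, against 5.67 CPM in WT replicate 3 and 5.6, 5.9 and 6.71 CPM in the KO livers. Of 8 erythroid genes with a count 2 lay above, among them Hbb-bs at 38.4 and 84.5 CPM in the acute-phase livers, against 24.1 CPM in WT replicate 3 and 9.24, 36.6 and 38.2 CPM in the KO livers. Of 16 female-biased genes 1 lay above, Selenbp2, and 6 below, among them the P450 genes Cyp2b9, with 1.04 and 0.103 CPM in the acute-phase livers, against 30.8 CPM in WT replicate 3 and 4.47, 10.5 and 31.0 CPM in the KO livers, and Cyp2a4. Of 9 glucocorticoid targets 1 lay above, Sgk1, and 2 below, Klf9 and Angptl4. Of 12 immediate-early genes 1 lay above, Btg2, and of 16 clock genes 0 lay above or below.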
